A study of Mus musculus with 6 samples.

Results

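KPC469 is 1 of 6 mouse pancreatic ductal adenocarcinoma cell lines whose RNA was sequenced, and it was compared with the other 5 lines, KPC142, KPC180, KPC490, KPC630 and KPC850. A gene was counted for KPC469 when it reached 10 CPM in at least 1 line and lay at least 4-fold above the highest, or at least 4-fold below the lowest, of the other 5. CPM is a gene's count set relative to the library's total, here adjusted by a TMM factor, and it is not scaled for gene length, so levels are compared between lines and not between genes. Of 10234 genes at that level, 80 lay above and 76 lay below.

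The study concerns pancreatic tumour lines that draw few or many CD8+ T cells into the tumours they form, and its title names the protocadherin gene PCDH7. All 6 libraries came from tumour cells of the strain named KPC. KPC is the usual name of a mouse model in which Cre recombinase active in the pancreas switches on tumour-driving mutations, but the labels give the name alone. The labels give no infiltration class, treatment, age or passage for any line, and whether a line is 1 clone is not given in the sources used here.

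Each line had 1 library, so no spread between cultures could be estimated and no test was made. The 95% intervals given beside ratios come from the exact binomial distribution of the counts in both libraries and cover counting error alone. Where a line had 0 counts, the ratio was computed against a floor of 3 counts and is given as a lower bound. In these bulk libraries, fewer cells of a type and less RNA per cell cannot be told apart. Values of the other 5 lines are listed in the order KPC142, KPC180, KPC490, KPC630 and KPC850.

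Pancreatic ductal adenocarcinoma cells carry epithelial traits of the duct, such as keratins, claudins and secreted ductal proteins, and can take up mesenchymal traits, such as fibronectin and other matrix proteins, to varying degrees. Bone morphogenetic proteins (BMPs), Wnt and Hedgehog ligands are secreted signals that set cell identity, and each is held in check by secreted or membrane-bound antagonists. Cholesterol is made from acetyl-CoA through the mevalonate pathway, whose genes are switched on together by the transcription factor SREBP2 when sterols are low.

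The labelled cell type was checked against marker lists. Of 14 listed ductal tumour markers, 11 reached 10 CPM in at least 1 line, and their summed level in KPC469 was 11689 CPM, within the range of 8842 to 14868 CPM in the other lines. Spp1 alone gave 8760 CPM of that sum, and without it the markers summed to 2929 CPM in KPC469, below the 7197 to 12141 CPM of the other lines. The median of this list in KPC469 was -0.79 on the log2 scale relative to the median of the other 5 lines, the lowest of the 6 lines. The highest T and NK cell marker in KPC469 stood at 0.164 CPM, the highest endothelial marker at 0.164 CPM and the highest B cell marker at 0.0545 CPM, which is 1 count. Fibroblast markers reached at most 3.05 CPM in KPC469, and 8 of the 12 listed were under 1 CPM. Acinar markers reached at most 2.89 CPM, endocrine markers 0.817 CPM and erythroid markers 0.708 CPM. Of 14 myeloid markers, only Cd14 and Mrc1 reached 10 CPM, Cd14 at 138.9 CPM in KPC469 against 25.2 to 105.6 CPM and Mrc1 at 15.3 CPM against 52.0 to 159.9 CPM. The defining myeloid markers Adgre1, Lyz2, Itgam, Tyrobp and Fcer1g had 0 counts in KPC469, and Ptprc stood at 0.109 CPM. Xist, the RNA that coats the silenced X chromosome in female cells, stood at 0.545 CPM in KPC469 and 0.120 CPM in KPC142, against 1124 to 2329 CPM in the other 4 lines. The Y-linked genes Kdm5d, Uty, Ddx3y and Eif2s3y had 0 counts in KPC469 and were present only in KPC142. Library totals ran from 16471558 to 18701274 counts, with 18481045 in KPC469.

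The 80 genes above were 0.782% of the 10234 genes and the 76 below were 0.743%, together 1.52%. KPC469 had the most genes on the upper side of the 6 lines, 80 against 9 to 22 in the others under the same rule. Those were 9 in KPC142 (0.0879%), 22 in KPC180 (0.215%), 21 in KPC490 (0.205%), 16 in KPC630 (0.156%) and 18 in KPC850 (0.176%). On the lower side its 76 genes stood beside 70 in KPC142 (0.684%), 57 in KPC180 (0.557%), 28 in KPC850 (0.274%), 10 in KPC490 (0.0977%) and 8 in KPC630 (0.0782%). When KPC142 was left out of the comparison, the genes below the lowest of the remaining 4 lines numbered 118. Lowering the minimum level to 1 count in any line gave 194 above and 125 below. With edgeR's filterByExpr, which asks for counts in every line, they were 25 and 46. Going by rank alone, KPC469 was the highest of the 6 lines in 2193 genes (21.4%) and the lowest in 2067 (20.2%). At a 2-fold margin the counts were 211 above (2.06%) and 230 below (2.25%), and at an 8-fold margin 39 on each side (0.381%). In the plot of counts per line, KPC469 is the only line with more genes above than 22.

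**Figure D1:**
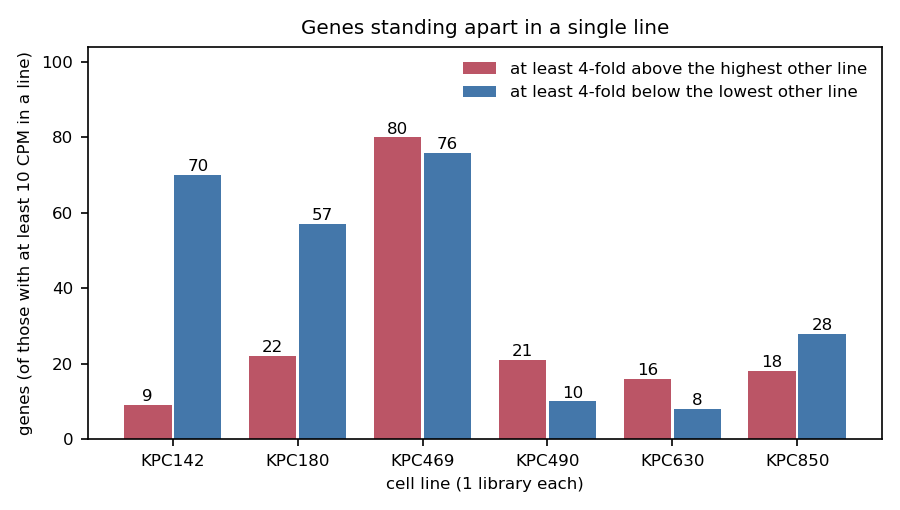
Number of genes, of 10234 with at least 10 CPM in any line, that lie at least 4-fold above the highest or below the lowest of the other 5 lines, for each of the 6 lines (y axis, genes; 1 library per line). KPC469 has 80 genes above and 76 below, and KPC142 has 9 above and 70 below.

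All 80 genes above were protein-coding, with a median ratio to the nearest line of 7.23, and 14 of them were at least 20-fold above it. In 12 of them every other line was under 1 CPM, and in 62 every other line was under 10 CPM. Those 62 met the minimum level through KPC469 alone, and such genes enter the counts and medians of the lists only because they were high there. The nearest line was KPC490 for 25 genes, KPC630 for 21, KPC142 for 17, KPC180 for 9 and KPC850 for 8. Of the 76 genes below, 72 were protein-coding, the median ratio was 8.17 and 17 were at least 20-fold below. In KPC469, 24 of them had 3 or fewer counts and 9 had none. The nearest line was KPC142 for 28, KPC490 for 15, KPC630 for 13, KPC850 for 11 and KPC180 for 9. In counting error alone, the interval of the ratio stayed above 4 for 62 genes above and 41 below, and it reached under 4 for 17 above and 26 below.

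At the edge of the rule, the glutamate transporter gene Slc17a6 (4.004-fold) and the ETS factor gene Etv1 (4.08-fold) lay just inside the upper threshold, and P3h3 (3.93-fold) and Jam2 (3.92-fold) just outside it. On the lower side the kinase gene Map3k13 (4.03-fold) lay just inside, and Mirt1 (3.97-fold) and Phlda2 (3.91-fold) just outside.

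Among the genes above, the marker genes Mgp, Ifitm1 and Kcnj2 were nearly confined to KPC469 in these 6 libraries. Mgp (matrix Gla protein, ENSMUSG00000030218), a secreted inhibitor of calcification that also binds BMPs, stood at 29.8 CPM in KPC469 and had 0 counts in each of the other 5 lines, at least 164-fold higher. Ifitm1 (ENSMUSG00000025491), an interferon-induced membrane protein that restricts virus entry, stood at 40.3 CPM in KPC469 against 0, 0, 0.174, 0.0532 and 0 CPM. Its ratio to KPC490, which had 3 counts, was 231 (78.9 to 1125), and because it belongs to a family of near-identical genes its reads could have been shared among copies. The inward-rectifier potassium channel gene Kcnj2 (ENSMUSG00000041695) stood at 87.1 CPM in KPC469 against 0.779, 0, 0.348, 0.0532 and 0 CPM, a ratio of 112 (65.2 to 210) to KPC142. None of the other 5 lines reached 1 CPM for any of these 3 genes.

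Several other genes with large margins encode secreted signals and surface transporters. Cck, which encodes the peptide hormone cholecystokinin, stood at 82.3 CPM in KPC469 against 0.899, 0.0607, 0.232, 0 and 0 CPM, a ratio of 91.6 (55.4 to 164). The cationic amino acid transporter gene Slc7a2 stood at 152 CPM against 1.68, 1.27, 0.581, 1.65 and 1.57 CPM, a ratio of 90.3 (62.4 to 136). In both genes all 5 other lines lay under 2 CPM. Grem1 (gremlin 1, ENSMUSG00000074934), a secreted BMP antagonist, stood at 778 CPM in KPC469 against 2.64, 7.53, 8.94, 0.213 and 0 CPM, 87.0 times KPC490 (74.2 to 103). Pthlh, the gene of parathyroid hormone-related protein, stood at 18.0 CPM against 0.300, 0.243, 0.639, 0.373 and 0.0583 CPM, 28.2 times KPC490 (15.6 to 57.1).

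Mef2c (ENSMUSG00000005583), a MADS-box transcription factor gene known for muscle, neural and immune development, stood at 25.1 CPM in KPC469 against 0.0599, 0, 0.290, 0.319 and 0.291 CPM, 78.5 times KPC630 (35.8 to 215). Islr, which encodes a secreted leucine-rich repeat protein, stood at 11.2 CPM against 0.120, 0, 0, 0 and 0 CPM, 93.7 times KPC142 (25.6 to 778). Igfbp5, an insulin-like growth factor binding protein, stood at 15.5 CPM against 0.359, 0.121, 0.523, 0.106 and 0.117 CPM, 29.6 times KPC490 (15.4 to 65.4). For these 3 genes the other lines rest on few counts, which is why the intervals are wide. Rgs16, a regulator that shortens G-protein signalling, stood at 22.6 CPM against 0.300, 0.121, 0.407, 0.852 and 0.0583 CPM, 26.5 times KPC630 (16.1 to 46.9). Kctd15 stood at 36.7 CPM against 0, 1.70, 0.697, 0.426 and 0.408 CPM, 21.6 times KPC180 (14.8 to 32.7). The protocadherin gene Pcdhgb1 showed a ratio of 75.0 to KPC490 (25.4 to 366), but it lies in the gamma-protocadherin cluster, whose genes share 3' exons, so its share of the reads is uncertain.

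**Figure D2:**
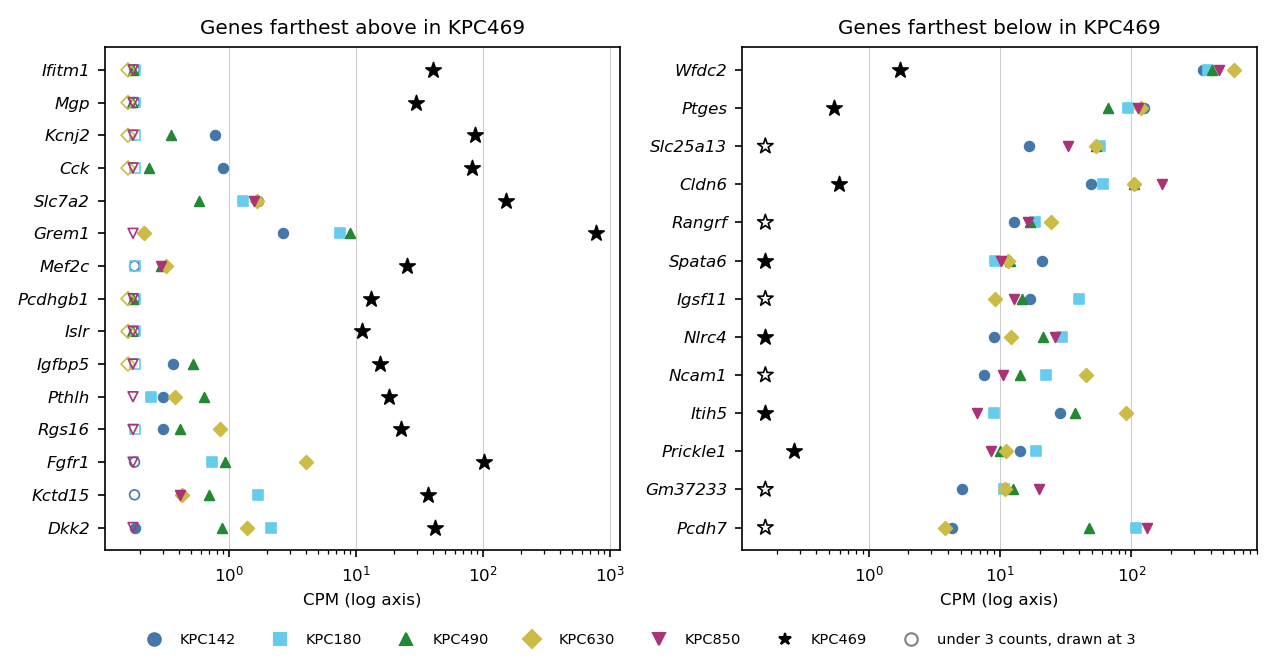
Level in each line (x axis, CPM on a log scale) of the 15 genes furthest above and 13 of the 15 furthest below the other lines (y axis, genes), 1 marker per library, open where it had under 3 counts and is drawn at 3. KPC469 sits at the far right of every row of the upper group and at the far left of every row of the lower group, for example 778 CPM for Grem1 and 1.74 CPM for Wfdc2.

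Genes of the extracellular matrix and of mesenchymal identity made up 1 group on the upper side. The mesenchymal list holds 30 genes, of which 9 stood under 1 CPM in KPC469, 7 of them under it in every line. Of the 18 that reached 10 CPM, 4 lay at least 4-fold above (Mgp, Fstl1, Prrx1 and Fn1) and none lay below. KPC469 was the highest line in 11 of these 18, against 21.4% of all genes. Their median difference from the median of the other 5 lines was 1.61 on the log2 scale, against 0.01 over all 10234 genes. Of the 18, 3 met the minimum level through KPC469 alone, among them Mgp and Fstl1, which raises that median. Fn1 (fibronectin), a matrix glycoprotein that cells bind through integrins, stood at 2567 CPM in KPC469 against 285, 616, 464, 579 and 280 CPM, 4.17 times KPC180 (4.08 to 4.26). Prrx1, a homeobox factor of mesenchymal cells, stood at 90.5 CPM against 0.659, 20.7, 6.10, 2.08 and 0.291 CPM, 4.38 times KPC180 (3.89 to 4.93). The other lines ranged widely for Prrx1, with KPC180 well above the remaining 4, whereas for Fn1 they lay close together.

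Zeb2 and Sparc lay at least 2-fold above in addition, and the remaining 12 of the 18 mesenchymal genes did not. Vim, the intermediate filament gene vimentin, stood at 2897 CPM in KPC469 against 1465 to 2763 CPM, 1.05 times the highest other line. Zeb1, a repressor of epithelial genes, stood at 67.8 CPM against 40.6 to 57.7 CPM, and Snai2, another such repressor, at 11.7 CPM against 3.89 to 6.77 CPM. KPC469 was the highest line for all 3 but by less than 2-fold. Twist1, which encodes a further factor of this kind, stood at 0.436 CPM in KPC469, the lowest of the 6 lines, against 0.728 to 42.4 CPM. The 4 genes Vim, Zeb1, Snai2 and Twist1 were chosen after their values were seen.

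Of 15 matricellular genes that reached 10 CPM, 2 lay 4-fold above (Mgp and Vcan), none below, and 7 lay at least 2-fold above. Of the 15, 2 met the minimum level through KPC469 alone, among them Mgp. Vcan, the large chondroitin sulphate proteoglycan versican, stood at 221 CPM in KPC469 against 14.9, 2.06, 35.6, 40.4 and 5.19 CPM, 5.46 times KPC630 (5.05 to 5.91). Spp1, the gene of osteopontin, stood at 8760 CPM against 1767, 1628, 2014, 810.8 and 2727 CPM, 3.21 times KPC850. Thbs1, the gene of thrombospondin 1, stood at 633 CPM against 50.7, 120, 36.5, 168 and 19 CPM, 3.78 times KPC630. The last 2 were outside the 4-fold rule although KPC469 held the highest level of each. Among 11 collagens, Col4a5, a basement membrane chain, lay 5.09-fold above (108 CPM against 6.92 to 21.3 CPM) and Col12a1, a fibril-associated chain, 4.33-fold above (24.9 CPM against 0.233 to 5.75 CPM). Col12a1, with an interval of 3.50 to 5.39, was the 1 gene of the 11 that met the minimum level through KPC469 alone. KPC469 was the highest line in 7 of the 11 collagens and the lowest in 3, against 21.4% and 20.2% of all genes. Of the 11, 1 lay at least 2-fold below. Mxra8, a matrix-remodelling-associated surface protein that alphaviruses use as a receptor, lay 9.30-fold above, and the matrix glycoprotein gene Emilin2 8.82-fold above. Laminins and basement membrane genes did not share this direction: of 12, none lay 4-fold above or below, and the list median was -0.59. KPC469 was the lowest line in 7 of the 12, against 20.2% of all genes.

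In the TGF-beta and BMP pathway, 1 BMP ligand, a co-receptor and antagonists were among the genes above, and another BMP ligand was among the genes below. Of 29 members that reached 10 CPM, 3 lay 4-fold above (Grem1, Bmp4 and Tgfbr3) and none below, with a median of 0.32. Of the 29, 2 met the minimum level through KPC469 alone, Grem1 and Tgfbr3. The list does not hold the ligand gene Bmp8b, which lay 5.66-fold below KPC180 (4.19 to 7.77), at 2.83 CPM against 59.0, 16.02, 42.6, 36.8 and 29.2 CPM. Bmp8b overlaps Ppie on the opposite strand. The ligand gene Bmp4 stood at 87.3 CPM in KPC469 against 10.7, 1.64, 4.70, 8.94 and 8.80 CPM, 8.19 times KPC142 (7.01 to 9.62). The co-receptor gene Tgfbr3 (betaglycan) stood at 11.4 CPM against 0, 0, 0, 1.65 and 0.117 CPM, 6.90 times KPC630 (4.72 to 10.4). The ligand and its antagonist Grem1 thus stood above in the same library. A list of 15 BMP antagonists and modulators was chosen after the values were seen, and 8 of them reached 10 CPM. Of the 8, 3 lay 4-fold above: Grem1, Fstl1 (17.5 CPM against 0 to 3.14 CPM) and Bmper (37.7 CPM against 2.68 to 7.61 CPM). These 3 met the minimum level through KPC469 alone, so they entered the list only because they were high there. Fst, the gene of the activin-binding protein follistatin, lay 2.78-fold above (27.9 CPM against 0.546 to 10.1 CPM), and Tgfb3, a TGF-beta ligand, 2.46-fold above (32.4 CPM against 1.86 to 13.2 CPM).

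Wnt and Hedgehog genes showed members on both sides. Of 23 Wnt pathway genes, 3 lay 4-fold above, 6 lay 2-fold above and 2 lay 2-fold below (Wnt7a and Rnf43). Of the 23, 4 met the minimum level through KPC469 alone, among them Dkk2, Fzd8 and Fzd3, which raises the counts above. The secreted Wnt antagonist gene Dkk2 stood at 42.0 CPM in KPC469 against 0.180, 2.12, 0.871, 1.38 and 0.117 CPM, 19.8 times KPC180 (14.1 to 28.6). The receptor genes Fzd8 and Fzd3 lay 8.22-fold and 4.64-fold above, and the ligand gene Wnt10b 3.46-fold above. The interval of Fzd3 was 3.41 to 6.41. A Hedgehog list of 16 genes was chosen after the values were seen, and 9 of them reached 10 CPM. Of the 9, 2 lay 4-fold above. Those 2 met the minimum level through KPC469 alone. Shh (sonic hedgehog, a ligand) stood at 29.7 CPM against 0, 0.182, 5.69, 0 and 0.291 CPM, 5.22 times KPC490 (4.20 to 6.54). Gas1, a membrane-bound co-receptor for that ligand, stood at 84.1 CPM against 3.54, 0.364, 2.09, 4.37 and 0.175 CPM, 19.3 times KPC630 (15.4 to 24.4). The related ligand gene Dhh (desert hedgehog) lay the other way, at 4.90 CPM in KPC469 against 18.3 to 78.2 CPM, 3.74-fold below the lowest line. Gli3, a transcription factor of the pathway, lay 2.42-fold above.

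Guidance molecules and growth factor receptors gave single members rather than whole families. Of 25 semaphorins, plexins, neuropilins and related genes, 3 lay 4-fold above, but the list median was -0.06 and the mean 0.40, of opposite sign. A semaphorin gene outside that list, Sema6b, lay 4.61-fold below KPC490 (3.55 to 6.05), at 3.87 CPM against 18.0, 20.6, 17.8, 30.0 and 37.7 CPM. The secreted repellent gene Slit2 stood at 187 CPM in KPC469 against 17.7, 13.2, 21.6, 9.74 and 6.35 CPM, 8.66 times KPC490 (7.78 to 9.66). Sema3f, a secreted semaphorin, lay 8.05-fold above (42.2 CPM against 1.94 to 5.25 CPM). Nrp1, a co-receptor for semaphorins and VEGF, lay 4.46-fold above (85.9 CPM against 2.21 to 19.3 CPM), with an interval of 3.97 to 5.01. Sema3f was the 1 gene of the 25 that met the minimum level through KPC469 alone. Of 18 genes of the EGF and FGF receptor families, only Fgfr1 passed the 4-fold rule. Fgfr1 was 1 of 2 among them that met the minimum level through KPC469 alone. It stood at 101 CPM against 0.0599, 0.728, 0.929, 4.05 and 0.117 CPM, 25.0 times KPC630 (19.9 to 31.9). Fgfr4, another FGF receptor gene, stood at 0.654 CPM in KPC469 against 2.40 to 20.8 CPM, 3.67-fold below the lowest line.

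Transcription factor genes above the other lines besides Mef2c and Prrx1 included Runx3, Sp8, Trps1, Foxc1, Insm1, Egr3 and Foxd1. Runx3, a Runt-domain factor, stood at 30.8 CPM against 0.240, 0, 0.116, 1.60 and 0 CPM, 19.3 times KPC630 (13.3 to 28.8). The zinc-finger factor genes Sp8 and Trps1 lay 18.5-fold and 12.3-fold above, and the forkhead factor genes Foxc1 and Foxd1 6.996-fold and 4.98-fold above. The interval of Foxd1 was 3.57 to 7.10. None of the Hox genes listed reached 10 CPM in any line. In signalling, Tnfrsf11b, which encodes osteoprotegerin, lay 19.03-fold above, the pancreatic polypeptide receptor gene Npy4r 16.8-fold and the Ras activator gene Rasgrf1 15.5-fold. Of 16 genes in the sphingosine-1-phosphate list, chosen after the values were seen, 11 reached 10 CPM, and 3 of these lay above. They were the kinase gene Sphk1 (7.47-fold), the exporter gene Spns2 (6.27-fold) and the lipid phosphatase gene Plpp3 (4.90-fold), at 23.9, 54.8 and 133 CPM in KPC469. Sphk1 and Spns2 met the minimum level through KPC469 alone. Spns2 overlaps Mybbp1a on the opposite strand, and the strand setting of the counting is not given in the sources used here. Slc5a3, the inositol transporter gene at 5.87-fold above, lies within Mrps6 on the same strand, so its reads and those of that gene are not fully separable.

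**Figure D3:**
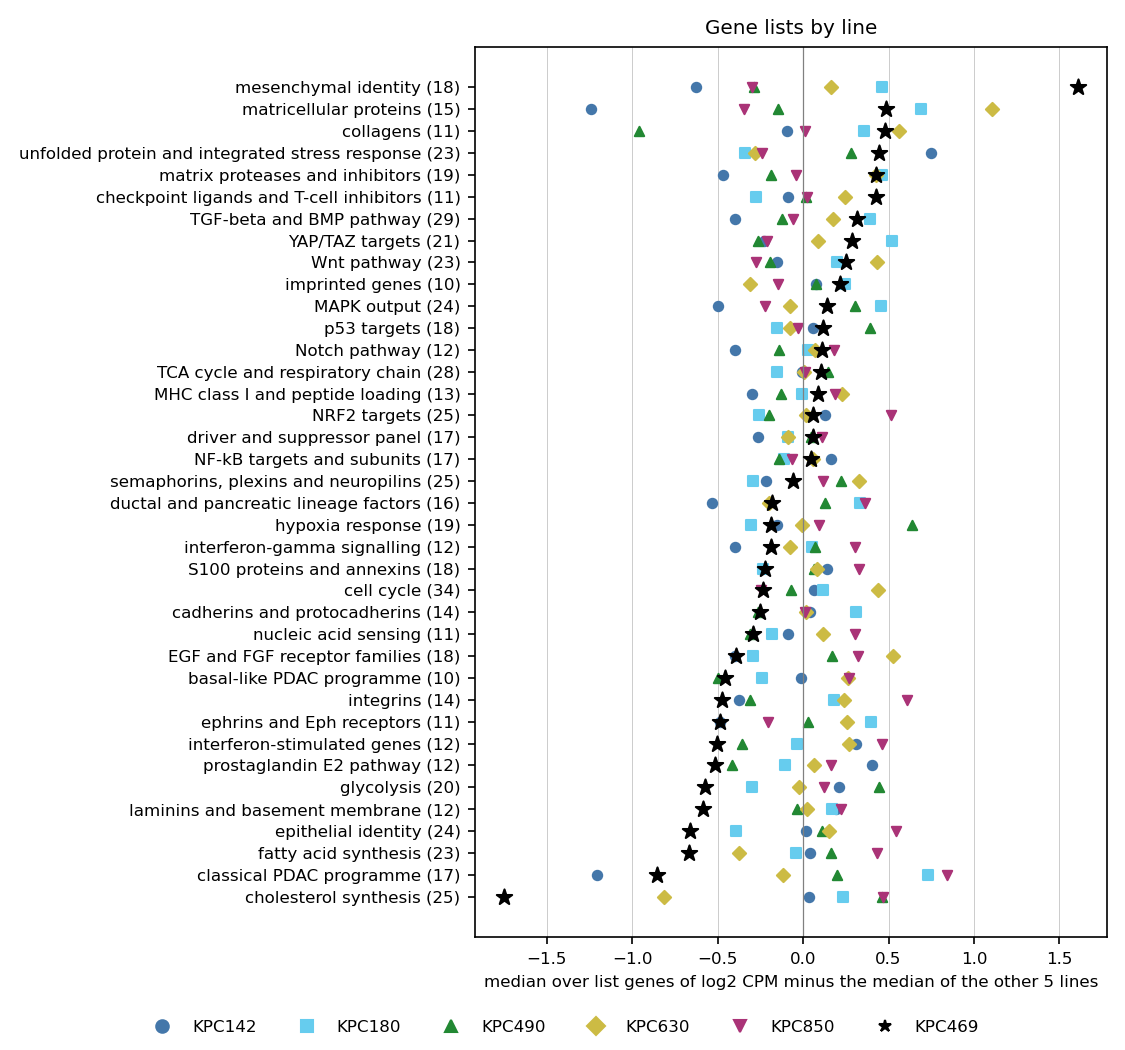
Median over the genes of each list of the log2 difference of a line from the median of the other 5 lines (x axis, log2), for gene lists with at least 10 genes at 10 CPM (y axis), 1 point per line. KPC469 lies furthest left for cholesterol synthesis at -1.75 and furthest right for mesenchymal identity at 1.61.

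Over the 38 programme lists with at least 10 such genes, KPC469 had the lowest median of the 6 lines in 8 and the highest in 2. The 8 were cholesterol synthesis, epithelial identity, fatty acid synthesis, glycolysis, interferon-stimulated genes, the prostaglandin E2 pathway, integrins and laminins. The 2 were mesenchymal identity and the checkpoint ligands and T-cell inhibitors, the latter at 0.43 with no member past 4-fold. In 19 of the 38 lists no gene passed the 4-fold rule in either direction, against a share of 1.52% over all genes. The cell cycle list was among these, with none of 34 genes past 2-fold and a median of -0.23. Over all genes 2.06% lay 2-fold above and 2.25% below, so few such genes are expected in a list of 34.

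Cholesterol synthesis was the list with the most uniform position. Of 25 genes that reached 10 CPM, KPC469 was the lowest line in all 25, against 20.2% of all genes, and the median was -1.75. Only 2 of them lay 4-fold below and 7 lay 2-fold below. The next lowest line was KPC630, with a list median of -0.82, while the other 4 lay between 0.03 and 0.47.

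By step of the pathway, the gene of the first committed enzyme, Hmgcs1, stood at 86.5 CPM in KPC469 against 326, 346, 456, 153 and 501 CPM. The mevalonate kinase gene Mvk stood at 15.1 CPM against 54.9, 40.3, 50.8, 34.4 and 70.9 CPM. The decarboxylase gene Mvd lay 1.8-fold below KPC630, which stood at 36.1 CPM, with 87.8 to 105.3 CPM in the remaining 4. In each of these 3 genes KPC469 was lowest and KPC630 next. Farther along, Sqle, which commits squalene to sterols, stood at 71.9 CPM against 268, 210, 519, 155 and 281 CPM.

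Genes that regulate the pathway, such as Srebf2 and Insig1, also stood lowest in KPC469. Srebf2, which encodes SREBP2, stood at 245 CPM against 723, 510, 442, 400 and 608 CPM. Insig1, which holds SREBP2 in the endoplasmic reticulum, stood at 63.8 CPM against 115, 174, 365, 97.0 and 331 CPM. The sterol isomerase gene Ebp showed the least difference, 78.1 CPM against 83.3 to 111 CPM. The values by line are drawn in the plot of cholesterol genes.

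**Figure D4:**
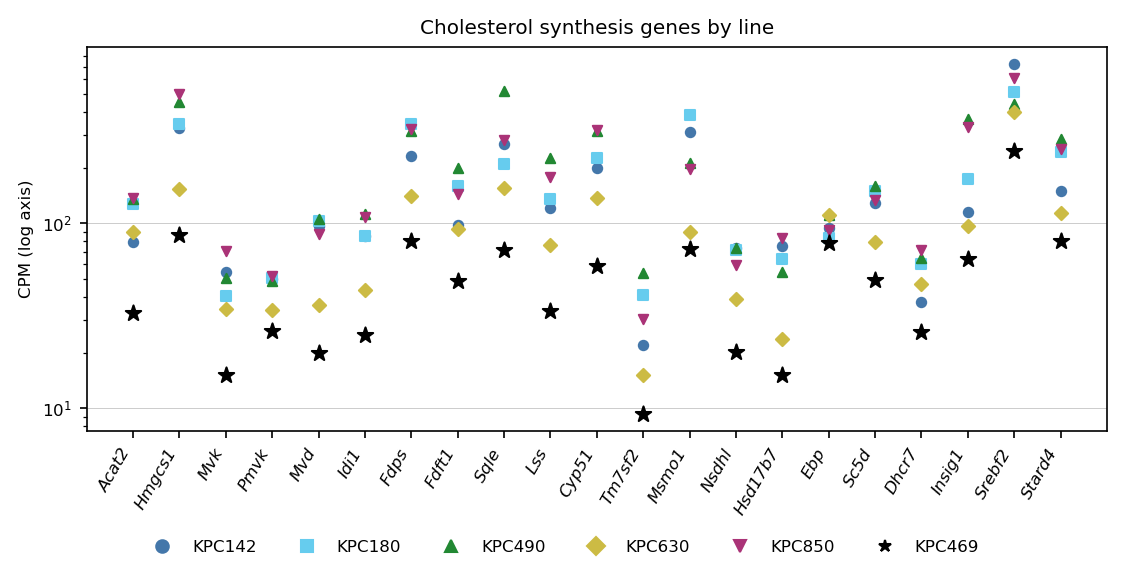
Level of 21 of the 25 cholesterol synthesis genes in each line (y axis, CPM on a log scale; x axis, genes), 1 marker per library. KPC469 is the lowest marker for each gene drawn, at 86.5 CPM against a lowest other value of 153 CPM for Hmgcs1 and at 78.1 against 83.3 CPM for Ebp.

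Since these genes stood low together, their promoters are shown for 3 steps of the mevalonate pathway, from the RefSeq table for GRCm38.p6, 250 bases before to 50 bases after the start of transcription. Capitals mark the sterol regulatory element TCACNCCAC, the sequence bound by SREBPs, and the CCAAT box, bound by NF-Y, each searched on both strands, the second reading ATTGG on the other strand. Hmgcs1 lies at chr13:119690101-119690400 on the plus strand, Mvd at chr8:122443373-122443672 on the minus strand and Mvk at chr5:114444019-114444318 on the plus strand.
Hmgcs1: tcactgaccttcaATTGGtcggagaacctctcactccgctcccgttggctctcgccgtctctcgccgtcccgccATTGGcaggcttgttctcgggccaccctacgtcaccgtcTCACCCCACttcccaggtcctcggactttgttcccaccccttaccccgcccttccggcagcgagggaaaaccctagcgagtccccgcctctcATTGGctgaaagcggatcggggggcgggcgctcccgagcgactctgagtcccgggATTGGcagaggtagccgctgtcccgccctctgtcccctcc
Mvd: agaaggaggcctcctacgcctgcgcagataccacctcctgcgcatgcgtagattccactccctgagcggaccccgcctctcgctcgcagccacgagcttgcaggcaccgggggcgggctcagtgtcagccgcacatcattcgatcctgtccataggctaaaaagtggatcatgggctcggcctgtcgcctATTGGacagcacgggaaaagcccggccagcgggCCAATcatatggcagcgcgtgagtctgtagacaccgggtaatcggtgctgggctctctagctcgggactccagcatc
Mvk: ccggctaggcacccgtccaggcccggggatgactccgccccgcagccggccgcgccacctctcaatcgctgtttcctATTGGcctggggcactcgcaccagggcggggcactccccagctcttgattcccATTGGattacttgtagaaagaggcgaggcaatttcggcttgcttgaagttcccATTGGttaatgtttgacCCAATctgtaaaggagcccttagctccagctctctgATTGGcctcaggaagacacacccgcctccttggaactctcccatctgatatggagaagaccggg
The Hmgcs1 promoter holds 1 sterol regulatory element, TCACCCCAC, 137 bases before the start, and 4 CCAAT boxes. The Mvd promoter holds 2 CCAAT boxes and the Mvk promoter 5, with no match to the sterol element in either window. Of the 17 cholesterol genes with a promoter in the table, 1 held the sterol element (5.88%), against 1.44% of 27025 genes. A CCAAT box was present in 16 of the 17 (94.1%), against 41.1% of 27025 genes. Among genes with a promoter in the table it was present in 41.0% of 61 genes above and 27.8% of 54 genes below. A match is a description of letters in these windows, and no match says only that the letters are not in them.

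Neighbouring lipid genes were lower in part. Of 23 fatty acid synthesis genes, none lay 4-fold below, 2 lay 2-fold below (Scd1 and Me1), and the median was -0.67. In a lipoprotein and sterol transport list of 30 genes, chosen after the values were seen, 18 reached 10 CPM. Of the 18, 3 lay below and 2 above. Apob, the structural protein of low-density lipoprotein, stood at 24.1 CPM in KPC469 against 168, 237, 394, 2063 and 714 CPM, 6.94-fold below KPC142 (6.28 to 7.69). Apoc2, the activator of lipoprotein lipase, lay 5.16-fold below (3.65 to 7.47), and Cubn, the endocytic receptor cubilin, 4.21-fold below (2.90 to 6.24). Abca1, the exporter that loads cholesterol onto apolipoprotein A-I, lay the other way, at 78.6 CPM against 6.11, 0.485, 7.03, 3.99 and 0.0583 CPM, 11.2 times KPC490 (9.29 to 13.6). The phospholipid exporter gene Abcb4 lay 5.35-fold above (3.977 to 7.325). Abca1 and Abcb4 both met the minimum level through KPC469 alone.

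Of 24 epithelial identity genes, KPC469 was the lowest line in 11, against 20.2% of all genes, and the list median was -0.66. None lay 4-fold below, 2 lay 2-fold below (Krt8 and Krt18), and 1 lay 4-fold above, the desmosomal plaque gene Pkp1 (55.5 CPM against 0.599 to 13.3 CPM, 4.18-fold). Cdh1, the gene of E-cadherin, stood at 400 CPM in KPC469 against 510, 725, 298, 462 and 767 CPM, so it was not the lowest line. Of 8 keratins, 3 lay 2-fold below and none above. Krt20, a keratin of differentiated intestinal and ductal epithelium, stood at 25.3 CPM against 445, 416, 238, 203 and 621 CPM, 8.02-fold below KPC630 (7.28 to 8.85). Krt8 and Krt18, which pair in simple epithelia, stood at 843 and 543 CPM, 2.84-fold and 2.20-fold below the lowest line. Krt19, another keratin of ducts, was within the range of the other lines, 887 CPM against 837 to 2755 CPM.

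Among single epithelial genes, Wfdc2 and Cldn6 were nearly absent from KPC469, while Cldn2 and Itga2 were lower but present. Wfdc2 (ENSMUSG00000017723), a secreted whey acidic protein domain product of ducts also known as HE4, stood at 1.74 CPM in KPC469 against 349, 383, 410, 598 and 461 CPM, 200-fold below KPC142 (142 to 293). The claudins are tight junction proteins, and 2 of the 5 that reached 10 CPM lay below. The 13 claudins found summed to 437 CPM in KPC469, within the 380 to 981 CPM of the other lines. A single claudin gave 361 CPM of that sum. Cldn6 stood at 0.599 CPM against 49.1, 60.2, 105, 104 and 170 CPM, 81.9-fold below KPC142 (45.5 to 165). Cldn2, which forms a cation pore, stood at 22.6 CPM against 227, 325, 199, 263 and 159 CPM, 7.04-fold below KPC850 (6.35 to 7.83). Itga2, the collagen-binding integrin chain, stood at 33.4 CPM against 239, 253, 350, 251 and 361 CPM, 7.16-fold below KPC142 (6.58 to 7.81). For Wfdc2 and Itga2 the other 5 lines lay close together and KPC469 alone stood apart.

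Of 17 genes of the classical pancreatic cancer programme, KPC469 was the lowest line in 7, against 20.2% of all genes. Krt20 was the sole member past 4-fold, and the list median in KPC469 was -0.86. KPC142 lay lower, with a median of -1.20. Hnf4a, a factor of endodermal identity, and the intestinal cadherin gene Cdh17 each lay 2.61-fold below, Cdh17 at 89.4 CPM against 665, 635, 723, 233 and 378 CPM. Pcdh7, the protocadherin named in the study's title, stood at 0.109 CPM in KPC469, which is 2 counts. The other lines had 4.31, 109, 47.6, 3.78 and 132 CPM, so KPC469 lay 34.7-fold below KPC630 (9.26 to 292), while the other lines differed widely among themselves. Another protocadherin, Pcdh18, lay the other way, at 54.7 CPM against 0, 0, 0.871, 4.63 and 0.291 CPM.

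Among genes with immune roles, Ptges (ENSMUSG00000050737), the inducible synthase of prostaglandin E2, stood at 0.545 CPM in KPC469, 10 counts, against 125, 94.7, 65.7, 118 and 112 CPM, 121-fold below KPC490 (65.3 to 252). Of 22 listed prostaglandin E2 pathway genes, 12 reached 10 CPM. Ptges was the sole one of these past 4-fold, and their median was -0.52. Nt5e, the ecto-enzyme CD73 that makes adenosine, stood at 5.83 CPM against 33.7, 105, 45.5, 27.9 and 106 CPM, 4.79-fold below KPC630 (3.88 to 5.95). Entpd2, which acts earlier in the removal of extracellular ATP, lay 3.51-fold below. Ikbke, a kinase of nucleic acid sensing, lay 4.07-fold below (2.98 to 5.64), the inflammasome gene Nlrc4 54.6-fold (18.3 to 268) and the Toll-like receptor chaperone gene Unc93b1 10.6-fold (3.81 to 40.8). Antigen presentation was mixed. Of 13 MHC class I and peptide loading genes, none lay 4-fold above or below, the median was 0.09 and the mean -0.44, of opposite sign. H2-K1 and H2-T23 lay 3.35-fold and 2.72-fold below, and B2m, the light chain of class I, stood at 70.9 CPM against 49.0 to 69.4 CPM. Of 12 interferon-stimulated genes, Ifitm1 was the sole one past 4-fold, and the list median (-0.50) and mean (0.04) were of opposite sign. Ifitm1 was also the 1 gene of the 12 that met the minimum level through KPC469 alone. Near-identical H2 and Ifitm copies make the split of reads among them uncertain.

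Coagulation and energy metabolism added further genes below, in lists chosen after the values were seen. Of 11 coagulation and fibrinolysis genes, 3 lay below, among them the thrombin-binding receptor gene Thbd and the protein C receptor gene Procr. Procr stood at 10.2 CPM in KPC469 against 62.0, 122, 57.1, 92.4 and 54.9 CPM, 5.38-fold below KPC850 (4.60 to 6.33). Thbd had 1 count in KPC469, with a ratio of 19.8 to KPC142 (3.13 to 825). Of 13 genes of ketone and citrin-related metabolism, 3 lay below, but the list median was 0.01. Hmgcll1, which makes acetoacetate, stood at 1.58 CPM against 35.5, 32.8, 48.0, 31.3 and 47.0 CPM, 19.8-fold below KPC630 (13.7 to 29.9). Bdh1, which interconverts acetoacetate and hydroxybutyrate, lay 15.7-fold below KPC142 (9.74 to 26.9). The lactate exporter gene Slc16a3 (MCT4) stood at 4.52 CPM against 49.4, 91.8, 146, 70.7 and 229 CPM, 10.9-fold below, and was the sole member of 20 glycolysis genes past 4-fold.

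A set of genes had no or almost no counts in KPC469 while every other line carried them. Slc25a13 (ENSMUSG00000015112), the mitochondrial aspartate-glutamate carrier citrin, had 0 counts against 16.7, 57.8, 53.3, 54.1 and 32.7 CPM, at least 102-fold lower. Rangrf, a small Ran-binding protein, had 0 counts against 12.7, 18.6, 17.0, 24.5 and 16.3 CPM, at least 77.7-fold lower. The adhesion molecule gene Ncam1 also had 0 counts, at least 45.8-fold lower. For these 3 genes no other line was under 7 CPM, so KPC469 was the single line without them. Spata6 and Igsf11 had 3 and 2 counts in KPC469, with ratios of 56.4 (18.9 to 277) and 83.5 (22.8 to 695).

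For the 24 genes with 3 or fewer counts in KPC469, a flanking gene was taken on each side. It was the nearest gene whose median over the other lines was at least 5 CPM. Flanks were thus chosen by the other lines, so a gene expressed in KPC469 alone could not be one. The level of each flanking gene in KPC469 was compared with the median of the other lines. The 48 flanking values had a median of -0.11 on the log2 scale. The flanks of Slc25a13 stood at -0.01 (Pon2) and -0.20 (Sem1). A flanking gene at least 2-fold lower was found beside 4 of the 24, and one at least 4-fold lower beside 1, Plac9a, whose flank Tmem254a stood at -2.48.

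Some members of the 4-fold rule stood next to each other in gene order. Mgp and Arhgdib on chromosome 6 and Bmper and Dpy19l1 on chromosome 9 were both above. Itih2 and Itih5 on chromosome 2, which encode inter-alpha-trypsin inhibitor heavy chains, lay in opposite directions. Itih2 stood at 72.4 CPM in KPC469 against 15.1, 11.3, 14.98, 6.92 and 16.8 CPM, and Itih5 at 0.164 CPM against 28.6, 8.98, 37.2, 90.2 and 6.70 CPM. Adjacency was assessed among the genes that reached 10 CPM, so other genes may lie between.

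By chromosome, KPC469 was lowest on chromosome 4 and highest on chromosome 13 more often than over all genes. On chromosome 4, KPC469 was the lowest line in 46.4% of 617 genes and the highest in 4.38%, against 20.2% and 21.4% over all genes, and the median difference was -0.34. That chromosome held 10 genes below (1.62%) and 4 above. Chromosome 6 had KPC469 lowest in 40.0% of 472 genes, with a median of -0.27, and chromosome 15 in 34.5% of 438 genes, with a median of -0.15. On chromosome 13 it was highest in 49.1% of 385 genes, with a median of 0.32, and on chromosome X in 34.7% of 303 genes, with a median of 0.30. Chromosomes 7 and 3 had KPC469 highest in 36.3% of 724 and 34.4% of 512 genes, with medians of 0.21 and 0.19. KPC630 had a higher median on chromosome X, at 0.39. Chromosome 8 had a median of 0.32 in KPC469, but KPC142 and KPC180 lay as high, at 0.36 and 0.50. DNA copy number was not analysed here, and its part in these medians was not tested.

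**Figure D5:**
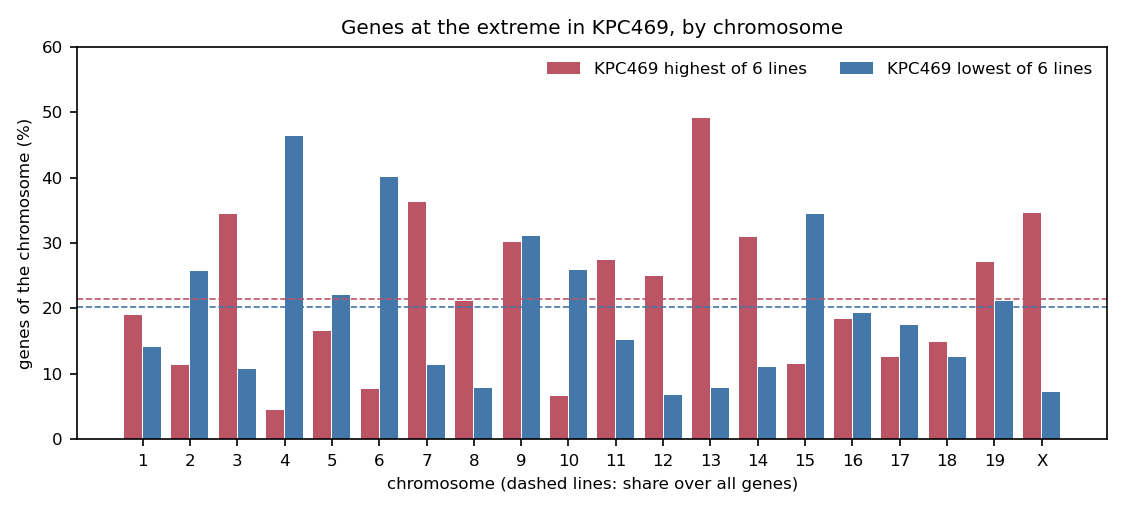
Share of the genes of each chromosome (y axis, percent; x axis, chromosome) for which KPC469 was the highest or the lowest of the 6 lines, with dashed lines at the shares over all genes, 21.4% and 20.2%. The bar for the lowest reaches 46.4% on chromosome 4 and the bar for the highest 49.1% on chromosome 13.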

How the data were processed

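RNA from 6 cell lines was sequenced from stranded mRNA libraries, per the labels' protocols, with 1 library per line. Per the submitters' processing notes, the tools were RSEM 1.3.3, STAR 2.7.10b and Trimmomatic 0.36 and the build was GRCm39. The authors deposited expected counts, RSEM's estimates for 56953 Ensembl genes, which were rounded to whole numbers here. How reads were assigned to strands is not given in the sources used here.

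TMM factors (0.986 to 1.01) came from edgeR 4.0.16 in R 4.3.3, and CPM was computed on the adjusted totals. On the total of KPC469, 1 count was worth 0.0545 CPM and the floor of 3 counts 0.163 CPM. Genes at 10 CPM or more in any line were kept, and 4-fold margins were taken on CPM with that floor. List medians are of log2 CPM in a line minus the median of the other 5 lines. With 1 library per line no test was made. The fold and interval steps were tested on simulated data. Python 3.11.15 and scipy 1.17.1 gave the intervals.

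Names came from GENCODE vM21, which matched 52029 of 56953 identifiers. It is built on GRCm38, so it served only for names, chromosomes and gene order. Promoters came from the RefSeq table for GRCm38.p6.

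Named genes were the 5 marker genes, genes of the 4-fold rule, up to 5 genes of each list with the largest differences, sex-chromosome genes and adjacent members. Genes at the edge of the rule, flanking genes and a few further list members were named after their values were seen. A few genes within this rule were left out of the text and plots. The members and lists were chosen with earlier results of these data known, and 6 lists were added after the values were seen. Alternatives covered the scaling, rounding, the minimum level, the margin, the reference level and leaving out each other line.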

Additional observations from a re-analysis of the deposited data

How the results depend on the processing

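The rule gave 80 genes above and 76 below. Scaling by totals alone gave 78 and 78, and DESeq2 size factors 78 and 77. A minimum of 20 CPM gave 58 and 59, of 5 CPM 105 and 99, and of 1 count 194 and 125. The edgeR filter filterByExpr, which asks for counts in every line, left 25 above and 46 below. A 2-fold margin gave 211 and 230, and an 8-fold margin 39 and 39. Against the median of the other lines, 224 genes lay above and 295 below. Leaving out 1 other line at a time gave 84 to 105 above and 84 to 118 below. Of the list medians under the alternatives, 772 moved by less than the SD of that list's medians over the other 5 lines and 66 by more. Among lists at least 0.5 from 0, 16 medians changed sign, and the cause was not tested. The trefoil and mucin list, 0.55, was -0.68 at 20 CPM, -0.10 at 1 count, -0.68 under filterByExpr, -0.17 against the mean of the other lines and -0.76 as a mean over members, and ran from -0.39 to 0.47 with 1 other line left out, above 0 only without KPC630. Potassium channels, 1.62, were -0.10 at 20 CPM, -0.10 at 1 count and -0.86 under filterByExpr. BMP antagonists, 1.29, were -0.02 at 1 count and -0.12 under filterByExpr, myeloid markers, -0.64, were 0.62 under filterByExpr, and the interferon-stimulated list, -0.50, was 0.04 as a mean over members. With all genes of 1 count, chromosomes 7, 8, 13 and X stood at -0.10, -0.03, -0.10 and -0.10. A gene with 0 counts in every line stands at -0.10 by the floor and the library totals alone, so medians of -0.10 at 1 count are the value of unexpressed genes and show no change of the lists or chromosomes. Levels under 0.163 CPM in KPC469 are below the floor of 3 counts. No paired analysis was possible because each line has 1 library and the labels carry no replicate numbers.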
